A study of Homo sapiens with 8 samples.

Results

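The cytosolic ribosomal protein genes code for the protein part of the ribosome, and their mRNAs were measured here in total RNA (T) and in RNA co-precipitated with Argonaute 2 (Ago2-IP, the IP fraction) of a Hodgkin lymphoma cell line. Members were all probes of the deposited value table whose gene symbol is RPL or RPS followed by a number, or RPLP0, RPLP1, RPLP2 or RPSA. The RPS6K kinase genes and symbols of pseudogenes were left out. This gave 184 of the 16060 probes used, for 83 of 8756 named genes. On the whole array 187 probes of 85 such genes were found, and the 3 outside the table were 1 RPL10 probe and 1 probe each of RPS4Y1 and RPS4Y2. Of 79 genes of the standard set of ribosomal proteins 76 were measured, with 46 of 46 for the large subunit and 30 of 33 for the small subunit. The other members were 7 paralogs, genes that arose by copying of a standard ribosomal protein gene. RPSA was matched by no probe. The signal of each of the 184 probes was flagged as well above background in every one of the 8 channels. The table had been filtered by the authors for detected probes, so this was in part fixed by the selection. The probes outside it were well above background in 3 channels (RPL10), 0 (RPS4Y1) and 1 (RPS4Y2).

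The cells were KM-H2, an established line from Hodgkin lymphoma, a B cell-derived tumor in which miR-155 is abundant. One population was transduced with the empty retroviral vector pMSCV-PIG (EV). The other carried a sponge for miR-155 in that vector (miR-155-sp), a transcript with many binding sites meant to sequester the miRNA. GFP+ cells of each were sorted. Neither the number of clones nor that of separate transductions is given in the sources used here. Each of the 4 RNA samples, namely EV T, EV IP, miR-155-sp T and miR-155-sp IP, was labelled once with Cy3 and once with Cy5, and T and IP of one population shared an array. The 4 arrays thus hold 8 labellings of 4 RNA samples. There was 1 RNA sample per group, so there are no replicates and no test. Both dye orientations are given instead, and they show the technical spread only. The value table had been filtered by the authors for probes whose labellings agreed, so this spread was in part fixed by the selection. The markers of Hodgkin cells fixed for this purpose, such as TNFRSF8 (CD30), were well above background in all 4 total RNA channels for 7 of 7 genes. Of the 5 B cell markers 2 were so, and CD79B was so in none of these channels. Of the 4 T cell markers 0 were so in all 4 channels, and of the 3 myeloid markers 1 was.

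A ribosome has a small subunit, which reads the mRNA, and a large subunit, which joins the amino acids. Its protein genes are among the most strongly expressed genes of a growing cell and are made in matched amounts. Their mRNAs belong to the TOP class, in which the transcript starts with a C and a run of pyrimidines (C or T in the gene), the 5′ terminal oligopyrimidine tract through which mTOR and LARP1 control translation. Ago2 is the protein that carries a miRNA to its target mRNAs, so that an IP/T ratio above 1 means a transcript took a larger share of the IP fraction than of total RNA, relative to the other probes. The miRNA whose sponge was used is printed here with its seed (bases 2 to 8), the part that pairs with targets, in capitals. It was read from RefSeq, assembly GRCh38.p14, at chr21:25573983-25574006 on the plus strand.
hsa-miR-155-5p: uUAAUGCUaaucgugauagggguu

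The start of the transcript is the region that ribosomal protein genes share, and it is shown for the genes at either end of the IP/T order described further on. Of the 83 genes 66 had a promoter entry in RefSeq (GRCh38.p14, 250 bases before to 50 after the start). Each line holds the 10 bases before and the 20 after the annotated start, 5′ to 3′ on the strand of the gene, with the run of C and T at the start in capitals. The first 6 genes were the highest in IP/T among those with an entry.
RPLP0: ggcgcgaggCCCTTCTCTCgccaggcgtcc
RPS27: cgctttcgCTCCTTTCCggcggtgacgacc
RPL35A: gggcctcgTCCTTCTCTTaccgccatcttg
RPL36A: ctcgcggTTTCTTTCTTTCCgcgccgatag
RPS25: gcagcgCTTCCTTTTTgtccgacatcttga
RPL36AL: TCTTCCCTTTCCTgttaggcgagagctgcg
These windows lie at chr12:120201092-120201121 (minus strand) for RPLP0, chr1:153990752-153990781 (plus) for RPS27, chr3:197950180-197950209 (plus) for RPL35A, chrX:101391001-101391030 (plus) for RPL36A, chr11:119018324-119018353 (minus) for RPS25 and chr14:49620607-49620636 (minus) for RPL36AL, where the run begins before the window. The next 6 genes were the lowest in IP/T among those with an entry.
RPL12: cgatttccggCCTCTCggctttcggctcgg
RPL21: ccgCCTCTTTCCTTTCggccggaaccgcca
RPL32: acgacccatcagCCCTTgcgcgccaccgtc
RPS10: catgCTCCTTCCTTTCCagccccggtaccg
RPL7L1: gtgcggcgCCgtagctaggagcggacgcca
RPL13: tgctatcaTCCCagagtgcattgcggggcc
They lie at chr9:127451387-127451416 (minus) for RPL12, chr13:27251548-27251577 (plus) for RPL21, chr3:12841546-12841575 (minus) for RPL32, chr6:34426050-34426079 (minus) for RPS10, chr6:42879606-42879635 (plus) for RPL7L1 and chr16:89560647-89560676 (plus) for RPL13. A run of at least 6 C or T letters on the gene's strand, reaching into the 5 bases before or after the start, was found for 48 of 66 ribosomal protein genes (72.7%) and for 21.9% of all 27305 genes with an entry. The median run was 11 letters against 3. Of the genes with a mean IP/T of 2 or more in EV, 6 of 7 had such a run, and of those with a mean of 0.5 or less 3 of 6. The letters CTCTTTCC on either strand of the 300 bases were present for 11 genes (16.7%) against 3.7% of all genes. The shorter CTTTCC, which lies within CTCTTTCC, was present for 31 (47%) against 30.2%. The annotated start may differ from the one used in KM-H2, and the shorter letters and the run were chosen after the values were seen.

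IP/T differed from one ribosomal protein gene to the next, though less widely than over all probes, while the probes of one gene mostly lay close together. In EV cells the 184 probes ran from a log2 IP/T of -1.55 to 2.39 with a median of -0.38, against a median of -0.25 over all 16060 probes. All probes ran from -3.06 to 6.13, and the SD over probes was 0.73 for the members and 1.12 for all probes. In miR-155-sp cells they ran from -1.64 to 2.15 with a median of -0.39, against -0.26. The offset of the list from all probes depends on the scaling: when channels were only shifted to the same median (a common median) rather than quantile-normalized, the medians in EV were -0.31 for the list and -0.31 for all probes. With normexp background correction and loess they were -0.28 and -0.02. The ratio of 2 that the study used as the mark of enrichment was reached or passed in EV by 13 of 184 probes (7.07%), against 15.1% of all probes. In miR-155-sp it was reached by 10 (5.43%) against 16% of all probes, and all 10 were among the 13. At the other end, 21 probes (11.4%) had a ratio of 0.5 or lower in EV against 12.9%, and 20 (10.9%) in miR-155-sp against 13.9%, with 16 probes common to both.

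Most members were thus on the low side of 1 without being far from it. IP/T was below 1 in both dye orientations for 116 probes (63%) in EV against 52.6% of all probes, and for 122 (66.3%) in miR-155-sp against 52.8%. These counts depended on the scaling, with 73 in EV and 72 in miR-155-sp under normexp and loess and 84 and 63 under a common median. The shares of all probes for these 4 counts are not given here. By the mean of both orientations, 71.2% of members were below 1 in EV, against 60.9% of all probes. With a common median it was 69% against 63.5%, and with normexp and loess 67.9% against 52.1%. The ratio was above 1 in both orientations for 37 (20.1%) in EV against 32.8%, and for 34 (18.5%) in miR-155-sp against 32.9%. In both orientations of both populations 111 probes were below 1 and 31 above, for which the shares of all probes are not given here. The members are also bright: with all probes split into 4 equal groups by mean signal, 180 of 184 fell in the brightest. In that group 12.6% of all probes reached a ratio of 2 in EV and 11.4% were at 0.5 or below.

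**Figure D1:**
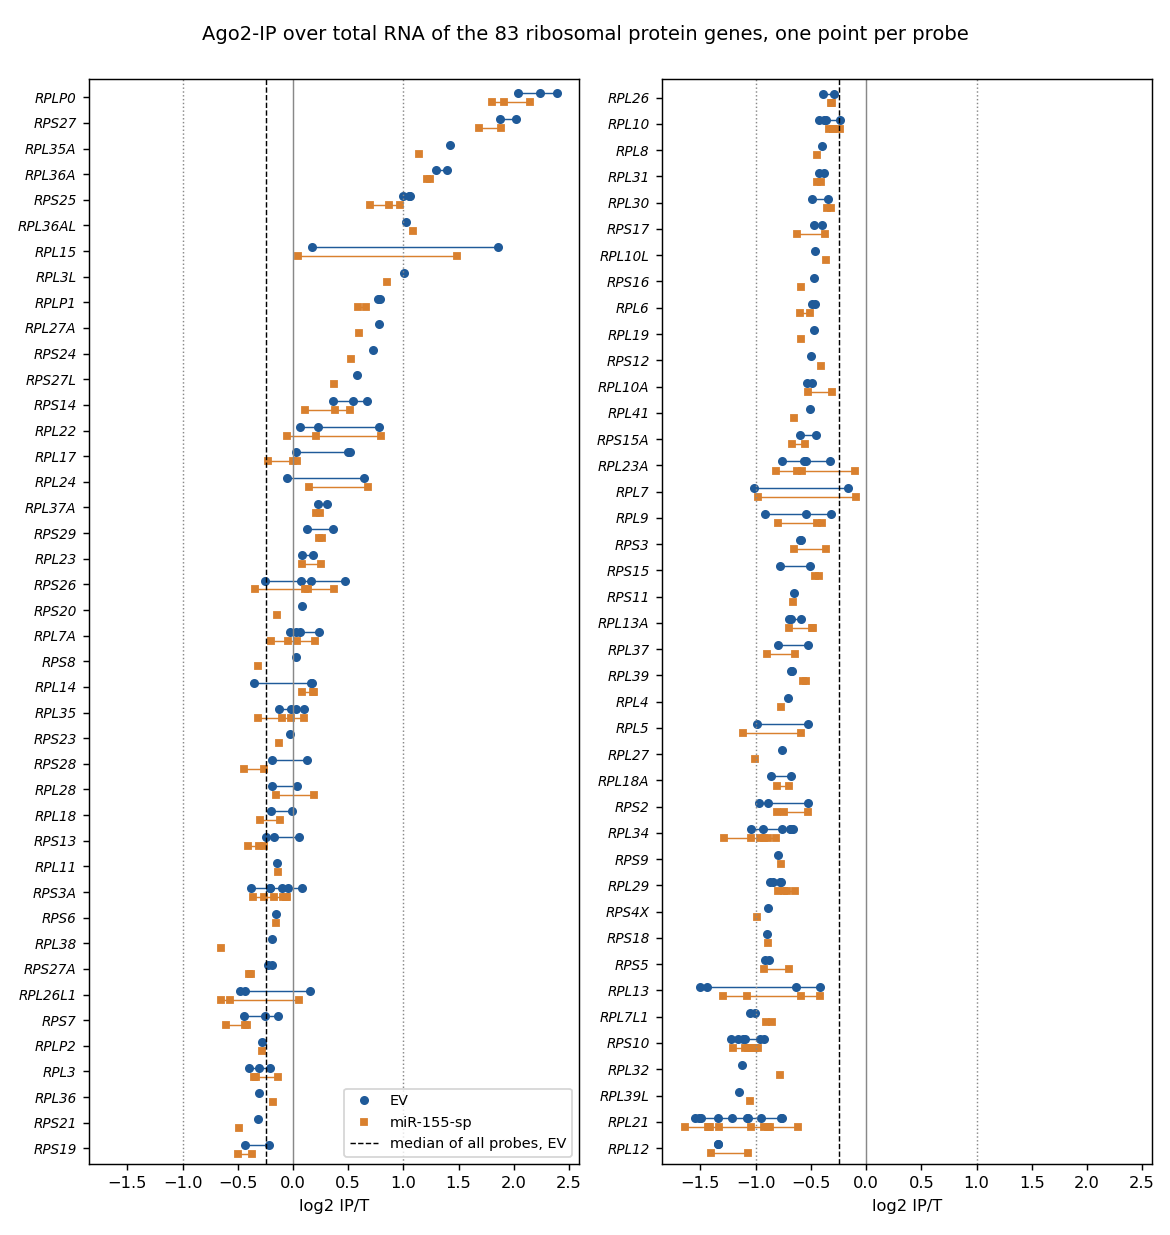
Log2 IP/T of every ribosomal protein probe, with genes ordered by their mean in EV cells from the top of the left panel to the foot of the right one. Circles are EV and squares miR-155-sp, a line joins the probes of a gene, dotted lines mark ratios of 2 and 0.5, and the dashed line is the median of all probes in EV (-0.25). RPLP0 and RPS27 stand at the top with all their probes, RPL12 and RPL21 at the foot, and the widest lines belong to RPL15 and RPL13.

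The agreement between probes was close for most genes. For the 54 genes with more than 1 probe, the range between the highest and the lowest probe of a gene had a median of 0.22 on the log2 scale in both populations, while gene means spanned 3.56. Of the variance among these probes 92.6% lay between genes in EV and 92% in miR-155-sp. All probes of a gene were below 1 for 32 of the 54 genes in EV, above 1 for 12 and on both sides for 10. Of all probes 60.9% were below 1 in EV. The same counts and variance shares over all genes with several probes are not given here, so they do not set the family apart. Over the 83 gene means, the 2 populations gave nearly the same order, with a Pearson r of 0.98. Probes of one gene can share sequence with each other and with processed pseudogenes, which are numerous for ribosomal protein genes, and they come from the same 4 RNA samples. They are therefore not independent measurements.

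RPLP0 had the highest IP/T of all ribosomal protein genes. It codes for the protein at the base of the stalk, the arm of the large subunit that brings elongation factors to the ribosome, and with RPLP1 and RPLP2 it forms that arm. Its probe A_23_P204472 had normalized log2 signals in T of 16.26 (Cy3) and 16.29 (Cy5) in EV, and in IP of 18.72 and 18.62. In miR-155-sp these were 16.67 and 16.56 in T, and 18.72 and 18.81 in IP. Both IP labellings lay above both T labellings in each population, with no overlap. The IP/T ratio of this probe was 5.25 in EV (5.13 and 5.37 in the 2 orientations) and 4.42 in miR-155-sp (4.38 and 4.46). The other RPLP0 probes gave 4.10 and 4.72 in EV, and 3.49 and 3.75 in miR-155-sp. Under the other ways of normalizing, the RPLP0 probes ranged from a log2 IP/T of 1.86 to 2.64 in EV.

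The stalk proteins did not share this level. RPLP1 had 2 probes with ratios of 1.70 and 1.72 in EV, and 1.58 and 1.50 in miR-155-sp, above 1 in each orientation. The single RPLP2 probe had log2 signals in EV of 17.41 and 17.28 in T, and of 17.13 and 17.00 in IP, a ratio of 0.824 (0.751 and 0.904). In miR-155-sp its ratio was 0.823. RPLP1 and RPLP2 are acidic proteins that dimerize and sit on RPLP0, and in these samples the 3 mRNAs fell at 3 separate levels of IP/T with no overlap between genes in either population.

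RPL12, whose protein sits beside RPLP0 at the foot of the stalk, lay at the opposite end. Probe A_23_P217068 had log2 signals of 18.37 and 18.02 in T and of 16.72 and 17.01 in IP of EV cells, a ratio of 0.396 (0.388 and 0.404), and a ratio of 0.379 in miR-155-sp. The second probe gave 0.395 in EV and 0.476 in miR-155-sp. Mean gene ratios in EV were thus 0.395 for RPL12 and 4.67 for RPLP0.

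**Figure D2:**
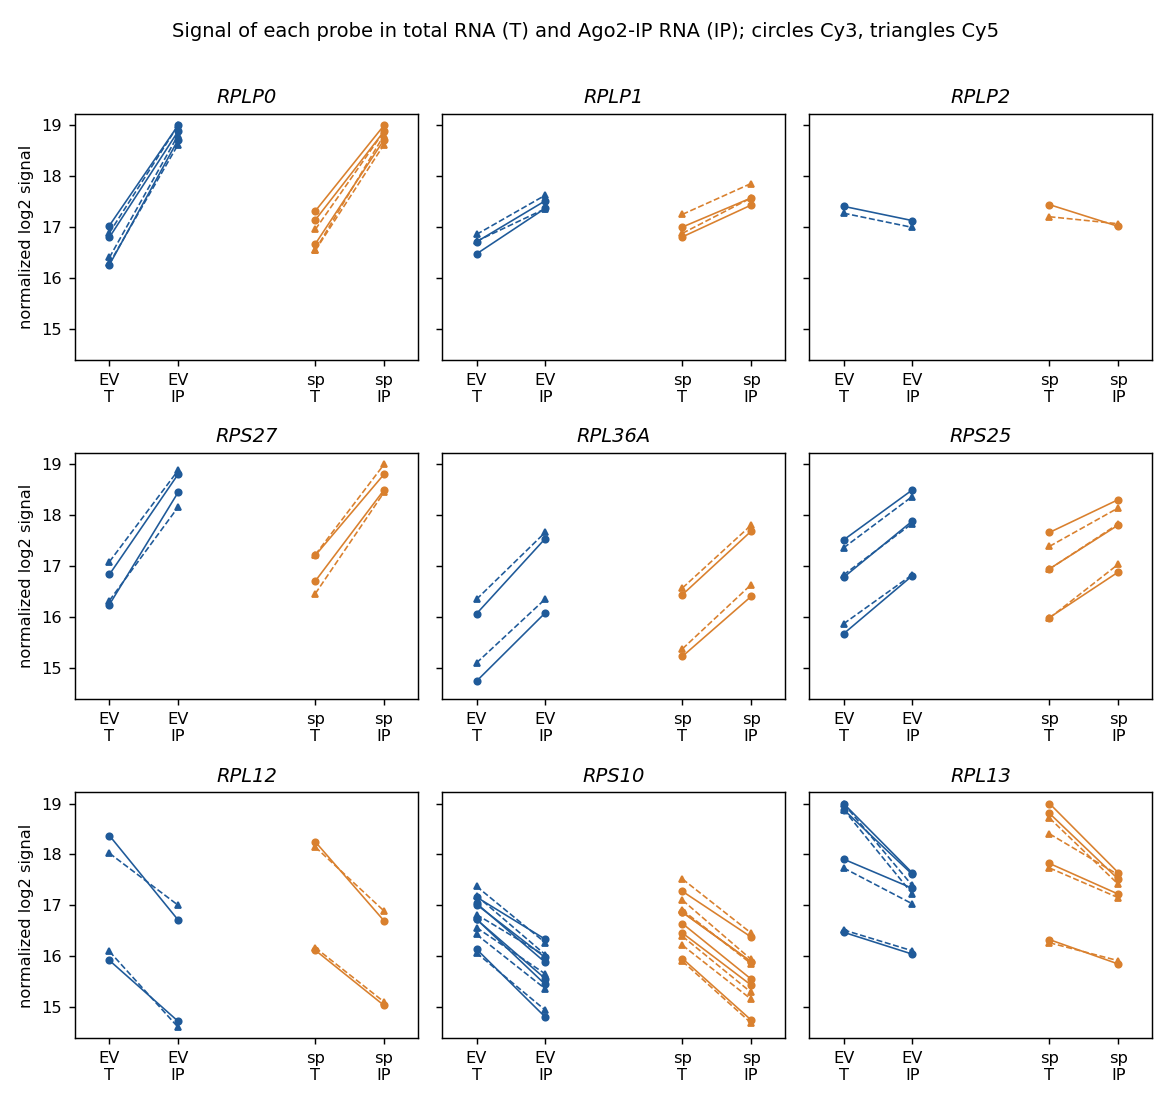
Normalized log2 signal of each probe in total RNA (T) and in Ago2-IP RNA (IP) for 9 genes, with EV in blue, miR-155-sp (sp) in orange, circles and solid lines for Cy3, and triangles and dashed lines for Cy5. The lines of RPLP0 and RPS27 climb in every labelling, that of RPLP2 is nearly flat (EV ratio 0.824), and those of RPL12, RPS10 and RPL13 descend.

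Beside RPLP0, the genes whose mean IP/T was at least 2 in EV were RPS27, RPL35A, RPL36A, RPS25, RPL36AL, RPL15 and RPL3L, 8 in all. RPS27, a small subunit protein with a zinc finger, had 2 probes. For A_23_P74629 the log2 signals in EV were 16.25 and 16.33 in T and 18.45 and 18.16 in IP, and in miR-155-sp 16.71 and 16.47 in T and 18.50 and 18.45 in IP. Its ratio was 4.05 in EV and 3.69 in miR-155-sp. The other probe gave 3.68 and 3.20. Its paralog RPS27L, a gene induced by p53, had a ratio of 1.50 in EV and 1.29 in miR-155-sp, above 1 in both orientations of each and below both RPS27 probes.

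RPL36A and its paralog RPL36AL code for nearly identical proteins, and both were high. The RPL36A probes gave ratios of 2.63 and 2.45 in EV, and 2.36 and 2.33 in miR-155-sp. The RPL36AL probe gave 2.03 (1.68 and 2.47 in the 2 orientations) and 2.12 (1.97 and 2.28). How far a probe of one binds cRNA of the other cannot be read from these files.

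RPS25, a small subunit protein needed for translation from several internal ribosome entry sites, had 3 probes with ratios between 1.99 and 2.08 in EV and between 1.62 and 1.96 in miR-155-sp. It was the gene with the tightest set of probes among the high ones, with a range of 0.06 on the log2 scale in EV. RPL35A, one of the genes mutated in Diamond-Blackfan anemia, had a single probe with a ratio of 2.68 (2.43 and 2.96) in EV and 2.21 (1.66 and 2.94) in miR-155-sp. Just under a mean of 2 in EV lay RPLP1, RPL27A (1.71), RPS24 (1.65) and RPS27L.

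RPL15 and RPL13 were the genes whose probes differed by more than 2-fold in EV. For RPL15, a large subunit protein, probe A_23_P253200 had log2 signals of 13.48 and 13.70 in T and 15.31 and 15.58 in IP, a ratio of 3.62, while probe A_24_P257359 had 17.68 and 17.76 in T and 17.86 and 17.92 in IP, a ratio of 1.13. Both are assigned to the same RefSeq transcript. For RPL13 the 4 probes gave ratios of 0.352, 0.369, 0.643 and 0.748 in EV, and 0.474, 0.408, 0.664 and 0.750 in miR-155-sp, so that all 4 were below 1 in both. For these genes the mean over probes joins values that differ, and the reason for the difference was not tested. RPL15 reached a mean of at least 2 in EV through its higher probe alone.

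At the low end, 7 genes had a mean IP/T of 0.5 or less in EV: RPL12, RPL21, RPL39L, RPL32, RPS10, RPL7L1 and RPL13. RPL21, a large subunit protein, was covered by 10 probes, all below 1, with ratios from 0.341 to 0.591 in EV and from 0.320 to 0.654 in miR-155-sp. RPS10, a protein of the head of the small subunit, was covered by 6 probes with ratios from 0.427 to 0.527 in EV and from 0.433 to 0.508 in miR-155-sp. For the RPS10 probe A_32_P164630 the log2 signals in EV were 17.04 and 17.19 in T and 15.88 and 16.04 in IP, and in miR-155-sp 16.87 and 17.10 in T and 15.90 and 15.94 in IP. All 4 IP labellings lay below all 4 T labellings. RPL32 had a single probe with ratios of 0.458 in EV and 0.583 in miR-155-sp.

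The position of the extreme genes in the signal distribution bears on their values. The RPLP0 probe A_32_P116881 held rank 1 from the brightest of 40981 probes in 3 of the 4 IP channels and rank 2 in the other, and the RPL13 probe A_24_P142223 held rank 1 or 2 in 3 of the 4 T channels and rank 8 in the other. Quantile normalization gives the same value to the same rank, so the value of a probe at rank 1 cannot go up further. No gene spot was saturated. Ranks place probes within a channel and do not compare amounts of mRNA between genes.

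The large and small subunits overlapped almost entirely. The 111 large subunit probes had a median log2 IP/T of -0.40 in EV and -0.40 in miR-155-sp. In each population 7 of them (6.31%) had a ratio of at least 2 and 14 (12.6%) one of 0.5 or less. The 63 small subunit probes had medians of -0.24 and -0.38, with 4 (6.35%) and 2 (3.17%) at 2 or more. At 0.5 or less were 4 (6.35%) and 5 (7.94%). Of all probes 15.1% in EV and 16% in miR-155-sp were at 2 or more, and 12.9% and 13.9% at 0.5 or less. The difference of the medians, large minus small, was -0.16 in EV and -0.01 in miR-155-sp, where its sign turned when probes were averaged per gene (0.04) and with normexp and quantile normalization (0.02).

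The 10 probes of 7 paralogs ran from -1.15 to 1.02 in log2 IP/T in EV, inside the span of -1.55 to 2.39 of all ribosomal protein probes. RPL39L (0.450 in EV, 0.482 in miR-155-sp), known from testis, and the 2 probes of RPL7L1 (0.483 and 0.497 in EV) were low. RPL10L, also known from testis, was at 0.727 and 0.776. The 3 RPL26L1 probes were at 0.718, 0.741 and 1.11 in EV. RPL3L, the striated muscle form of RPL3, had ratios of 2.00 in EV and 1.80 in miR-155-sp, but its orientations were far apart, with 2.38 and 1.69 in EV and 2.77 and 1.17 in miR-155-sp. Its signal was low, with log2 values from 6.65 to 8.12 over the 8 channels. The standard RPL3 had ratios from 0.758 to 0.868 in EV over 3 probes.

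Ribosomal proteins that bind MDM2 and thereby stabilize p53 form a further list with 16 probes of 8 genes. In EV 0 of these 16 probes reached a ratio of 2, against 15.1% of all probes, and 0 were at 0.5 or less, against 12.9%, so that few of so short a list would be at either end at the share of all probes. In miR-155-sp 1 RPL5 probe was at 0.5 or less (0.462). RPL5, which with RPL11 and the 5S rRNA forms the particle that binds MDM2, had ratios of 0.504 and 0.694 in EV, and RPL11 had one of 0.907. RPS14, the gene of the 5q- syndrome, was the highest standard gene of this list, with ratios of 1.29, 1.46 and 1.59 in EV and of 1.07, 1.30 and 1.43 in miR-155-sp. RPS3 (0.659 and 0.663), RPL26 (0.763 and 0.819) and RPS7 (0.734, 0.839 and 0.912) lay below 1 in EV, and the RPL23 probes (1.06 and 1.14) near it.

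FAU codes for a ribosomal protein fused to a ubiquitin-like part and lies outside the member rule by name. Its 3 probes had ratios of 0.494, 0.648 and 0.661 in EV and of 0.475, 0.667 and 0.618 in miR-155-sp, all below 1 in both orientations of both populations. RPS27A, a member whose protein is made as a fusion with ubiquitin, had ratios of 0.855 and 0.876 in EV.

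The question behind the sponge was whether lower availability of miR-155 shifts transcripts out of the Ago2-IP fraction. In KM-H2 the study saw no clear fall in the rank of the miR-155 target set in that fraction. It reports a mild decrease of IP enrichment for most of its selected target genes. It proposes that the sponge left part of the abundant miR-155 unbound. Small changes here therefore do not show how these mRNAs respond to a full loss of miR-155. For ribosomal protein probes the IP/T ratios in miR-155-sp followed those in EV, with a Pearson r of 0.976 over the 184 probes, which share all steps of labelling and normalization. For 0 of 184 the ratio differed 2-fold or more between populations, against 0.598% of all probes. The median size of the change, sign aside, was 0.11 on the log2 scale against 0.16 over all probes, and only 2 probes, of RPL14 (0.53) and RPL17 (-0.52), passed 0.5. The changes in the 2 dye orientations correlated with a Pearson r of 0.43 over probes.

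**Figure D3:**
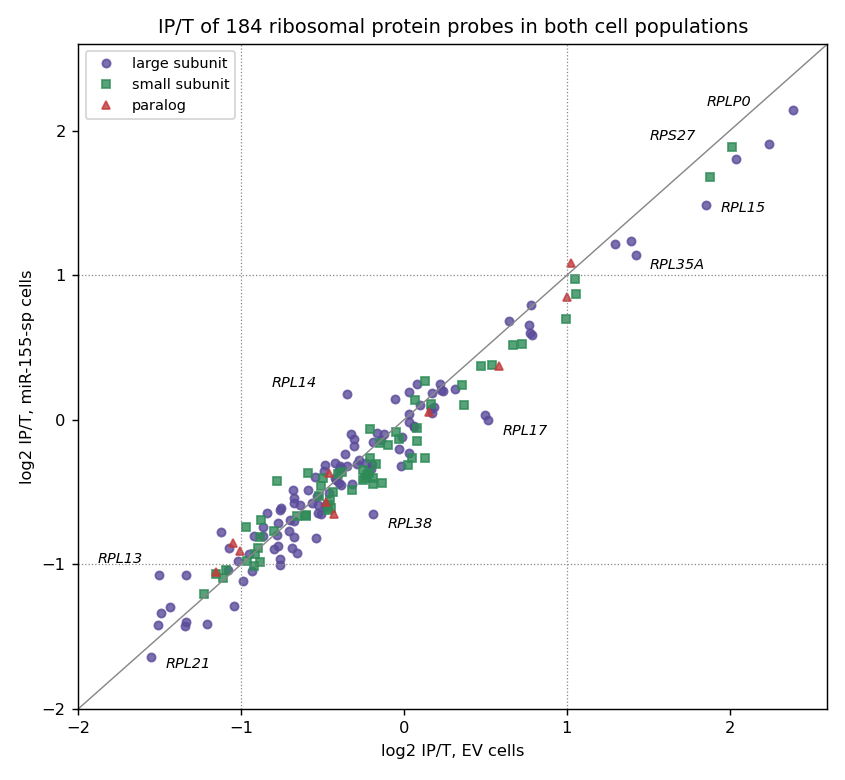
Log2 IP/T in miR-155-sp cells against log2 IP/T in EV cells for the 184 probes, with marker shape and color for large subunit, small subunit and paralog. The grey line marks equal ratios and dotted lines mark ratios of 2 and 0.5. Points follow the line over its whole length (r = 0.976), with the RPL14 probe above it and those of RPL17 and RPL38 below.

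The median change of log2 IP/T was -0.05 for ribosomal protein probes and -0.0008 for all probes, but its sign depended on the scaling: it was 0.04 with a common median (all probes 0.06), 0.03 with normexp and loess, and -0.04 with normexp and quantile normalization. The ratio was lower with the sponge in both orientations for 82 of 184 probes (44.6%) against 30.4% of all probes, and higher in both for 46 (25%) against 31.1%. By the mean of both orientations 59.2% of members were lower, against 50.1% of all probes. With a common median it was 41.3% against 39.6%, and with normexp and loess 44.6% against 54%. No direction common to the family can therefore be given. In the fractions themselves, total RNA was higher in miR-155-sp in both labellings for 87 probes (47.3%) against 32.7% of all probes, and lower for 53 (28.8%) against 33.6%. IP RNA was higher for 61 (33.2%) against 30.7%, and lower for 59 (32.1%) against 33.2%. In bulk RNA a lower level per cell and fewer cells with the transcript cannot be told apart. The median change was 0.05 in T and -0.01 in IP, and with normexp and loess it was -0.03 in T and 0.03 in IP.

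Within the family the small subunit had the larger share of lower ratios. The ratio was lower in both orientations for 36 of 63 small subunit probes (57.1%) and for 42 of 111 large subunit probes (37.8%), and total RNA was higher in both labellings for 38 (60.3%) and 43 (38.7%). The median change of IP/T was -0.09 for the small and -0.02 for the large subunit. With a common median these were -0.01 and 0.04, and with normexp and loess -0.01 and 0.05, so the small subunit was the lower of the 2 under each of these settings, with a median near 0 in the latter. The tally of total RNA turned with the scaling: by the mean of both labellings it was higher for 45 small subunit probes and lower for 17, and with normexp and loess higher for 30 and lower for 33 (median change -0.02). Among the 16 probes of the MDM2-binding list the ratio was lower in both orientations for 10 (62.5%, against 30.4% of all probes) and total RNA was higher for 12 (75%, against 32.7%). The median change of IP/T in this list was -0.11, and -0.04 both with a common median and with normexp and loess, where 9 probes were lower by the mean instead of 12. The 3 RPS7 probes were each lower, with changes of -0.16, -0.17 and -0.31, as were the 3 RPS14 probes (-0.15, -0.16 and -0.26). The ratio was higher in both orientations for 3 of the 16 probes (18.8%, against 31.1% of all probes). These were 1 probe each of RPS3 (0.23), RPL23 (0.17) and RPL26 (0.07).

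The change of the stalk probes with the sponge depended on the scaling. IP/T was lower with the sponge in both orientations for 5 of the 6 stalk probes (83.3%, against 30.4% of all probes), RPLP0 with changes of -0.23, -0.25 and -0.33. The RPLP2 probe was nearly unchanged (-0.003, with 0.04 and -0.04 in the orientations). Total RNA of the 3 RPLP0 probes was higher by 0.18, 0.24 and 0.34, while their IP RNA differed by -0.06, -0.09 and 0.09, at the ceiling of the IP distribution. With a common median, which has no such ceiling, the changes of the 3 probes were 0.04 to 0.16, and with normexp and loess 0.10 to 0.35. The change of RPLP0 with the sponge thus had no settled direction, whereas its IP/T above 2 in both populations was found under each of these settings.

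Decreases that went one way in both orientations were led by RPL17, a protein at the exit of the peptide tunnel. Probe A_32_P21384 had log2 signals in T of 16.06 and 16.01 in EV and 16.16 and 16.14 in miR-155-sp, and in IP of 16.52 and 16.58 in EV and 16.16 and 16.13 in miR-155-sp. Both IP labellings of miR-155-sp lay below both of EV. Its ratio was 1.43 in EV and 0.997 in miR-155-sp. A second probe went from 1.41 to 1.03, and the third from 1.02 to 0.854, so that all 3 were lower. The next largest decreases were those of RPL38 (0.877 to 0.637), RPS28 (1.09 to 0.833 for 1 probe, with the other lower by 0.25 on the log2 scale) and the high RPL15 probe (3.62 to 2.81). For RPL38 the change was -0.46 on average, and 0.06 when the Cy3 labellings alone were used, with T in Cy5 at 17.27 in EV and 18.21 in miR-155-sp, and T in Cy3 at 17.83 and 17.97. For the first RPS28 probe the change was -0.06 in the Cy3 labellings alone and -0.72 in the Cy5 labellings alone, while for the high RPL15 probe it was -0.35 and -0.38.

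**Figure D4:**
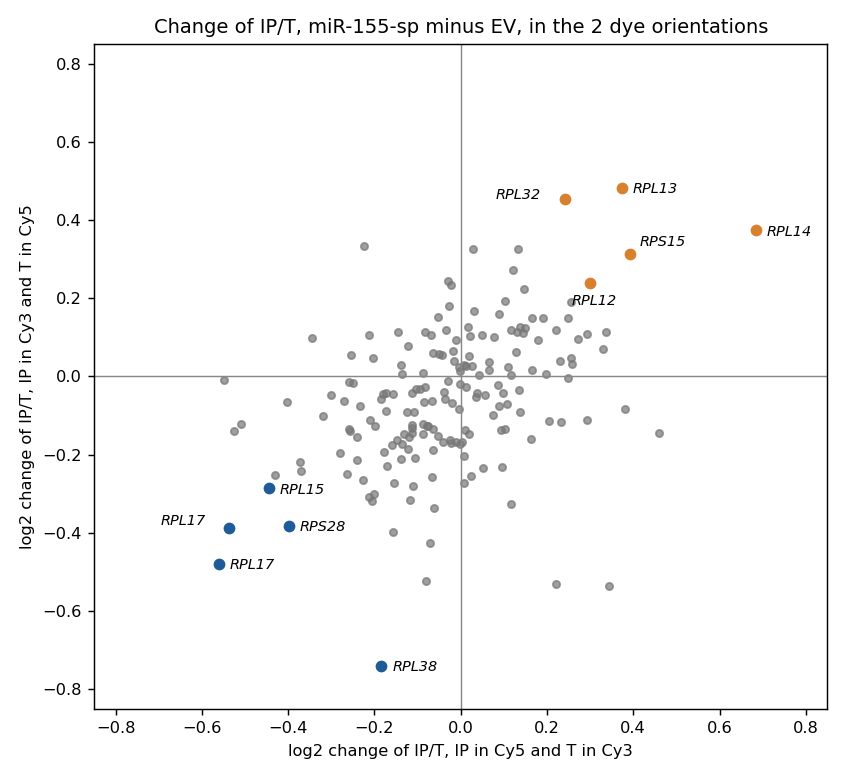
Change of log2 IP/T, miR-155-sp minus EV, with IP in Cy5 and T in Cy3 on the x axis and the reverse labelling on the y axis, for 184 probes. Blue points are the 5 largest decreases and orange points the 5 largest increases that went one way in both orientations. Both RPL17 points lie far from 0 on both axes, and RPL38 mostly on one.

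The largest increases were those of 1 RPL14 probe (0.785 to 1.13), 1 RPL13 probe (0.352 to 0.474), 1 RPS15 probe (0.582 to 0.744), RPL32 (0.458 to 0.583) and 1 RPL12 probe (0.395 to 0.476). Each of these 5 increases was larger in the Cy5 than in the Cy3 labellings. In Cy3 alone and in Cy5 alone the change was -0.11 and 1.16 for RPL14, 0.005 and 0.85 for RPL13, and 0.05 and 0.65 for RPL32. It was 0.22 and 0.49 for RPS15 and 0.11 and 0.42 for RPL12. For RPL14 the changes of the other 2 probes were -0.09 and 0.01, and for RPL12 that of the other probe was -0.06. Of the 54 genes with several probes, 20 had all probes lower in IP/T, 10 all higher and 24 on both sides, and 63.4% of the variance of the change lay between genes. The same figures over all genes are not given here. In total RNA alone the largest single differences were in RPL24 (probe A_32_P100974, higher by 0.56), RPS12 (0.56) and RPL38 (0.54), and the other RPL24 probe was at -0.10.

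Other genes of protein synthesis give a frame for these values. The 100 probes of 76 mitochondrial ribosomal protein genes had a median log2 IP/T of -0.38 in EV and -0.37 in miR-155-sp. At 2 or more were 5 (5%) in EV and 4 (4%) in miR-155-sp, against 15.1% and 16% of all probes. MRPL20 was highest with ratios of 6.06 and 6.10 in EV, and MRPL9 was lowest with 0.312. The 62 probes of 22 other TOP genes, FAU among them, had a median of -0.47 in EV. Of these 1 probe (1.61%) was at 2 or more and 10 (16.1%) were at 0.5 or less, against 15.1% and 12.9% of all probes. NAP1L1, a histone chaperone, was highest there (2.90 in EV, 4.01 in miR-155-sp), and TPT1, the translationally controlled tumor protein, lowest (0.262 and 0.299 in EV for its lowest probes). The 50 probes of 33 ribosome biogenesis genes had a median of -0.37 in EV, and their highest was LTV1, an assembly factor of the small subunit, with 3.73.

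The other TOP genes and the ribosomal protein genes differed in total RNA between populations. Total RNA was lower in miR-155-sp in both labellings for 38 of 62 probes of other TOP genes (61.3%, against 33.6% of all probes) and higher for 3 (against 32.7%), with a median change of -0.09, against 0.05 for ribosomal protein probes. Under a common median these were -0.02 and 0.16, and with normexp and loess -0.15 and -0.03, so the other TOP genes were the lower ones under each setting although the sign of the ribosomal protein median was not constant.

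**Figure D5:**
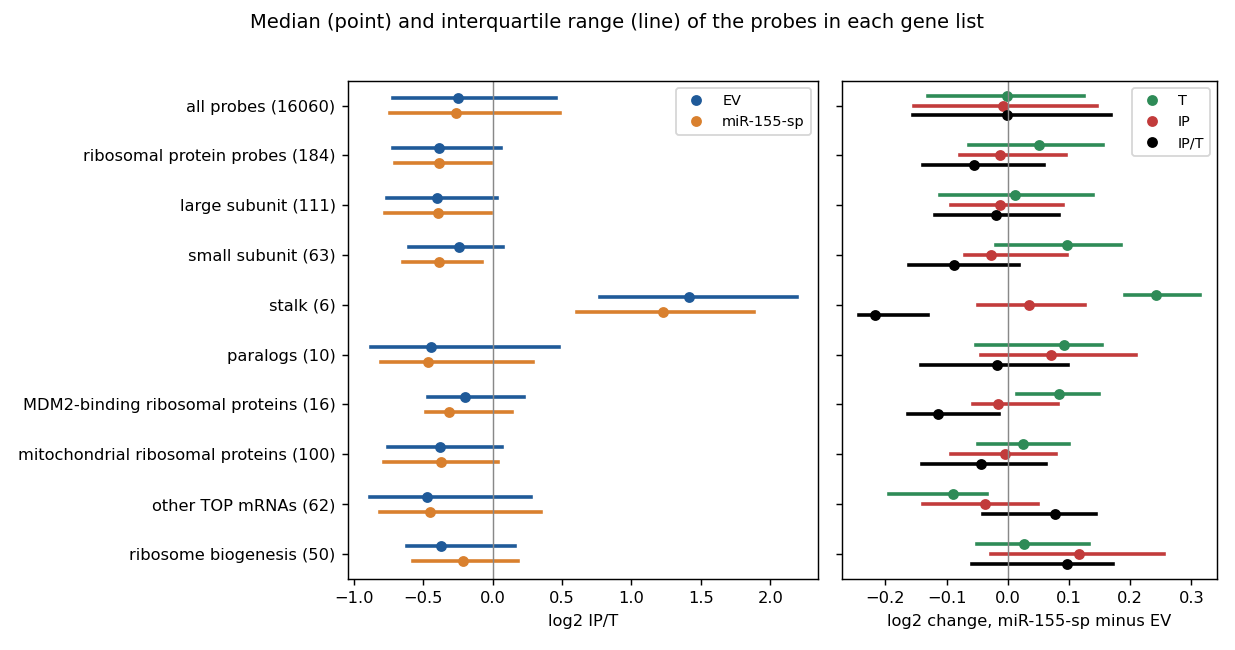
Median (point) and range between the quartiles (line) for each gene list, with the number of probes in parentheses. The left panel shows log2 IP/T in EV and miR-155-sp, and the right panel shows the change, miR-155-sp minus EV, in T, in IP and in IP/T. On the left the stalk list has an EV median of 1.41, with 3 of its 6 probes from RPLP0 and the RPLP2 probe at -0.28. All other lists shown have medians between -0.47 and -0.20.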

How the data were processed

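Total RNA and Ago2-IP RNA (about 100 ng each) had been labelled with Cy3 and Cy5 and hybridized to 2-color Agilent arrays. Per the file headers, the authors made the spot intensity values with Agilent Feature Extraction 10.7.3.1, which subtracts background and normalizes dyes. The submitters' processing notes name version 10.5.1.1. A table of quantile-normalized log2 values was deposited as well, filtered by the authors for detected probes whose labellings agreed, and it defines the probes used here. Of 16065 such probes 5, none of a ribosomal protein gene, had no value here.

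For each sample the channel of its own dye was used. Control and outlier spots (74 to 100 per channel) were left out, spots of a probe were averaged as log2, and 40981 probes were quantile-normalized over the 8 channels (Python 3.11.15, numpy 2.4.6, pandas 2.3.3). The Cy3 and Cy5 values of a sample were then averaged, and the T value was subtracted from the IP value to give log2 IP/T. Of gene spots 58.9 to 61.9% were well above background in Cy3 and 38.8 to 43.4% in Cy5. The number of arrays limits the precision. Ratios are relative to all probes and give no absolute amount of bound RNA. The steps were tested on simulated data.

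With 1 RNA sample per group no test, p-value or SD over samples was computed. Probes were named by RefSeq transcript through GRCh38.p14 (23958 of 41000 matched). Alternatives used a common median, normexp with an offset of 50 followed by loess or quantile normalization (limma 3.58.1, R 4.3.3), the deposited log2 values, an own detection filter, gene means, and each labelling alone. Probes named were the 8 highest and 8 lowest in EV IP/T, the 5 largest increases and decreases of IP/T that went one way in both orientations, all probes of the stalk, paralog and MDM2-binding lists, of FAU and of genes whose probes differ over 2-fold, and the 2 highest and lowest of other lists. Others were named after their values were seen, as part of a gene or list already described. The members and lists were chosen with earlier results of these data known. Left out were 4 pseudogene probes, 9 RPS6K probes and RPS19BP1. Protein sequences were not used here, and some items are not reported here.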

Additional observations from a re-analysis of the deposited data

Results flagged for a closer look

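In 3 probes every orientation of EV lay above 1 and every one of miR-155-sp below 1, or the reverse. The difference was not tested, since there was 1 RNA sample per group. The share of all probes that met the same rule is not given here, so the count of 3 says nothing about the family. The RPL14 probe A_32_P81149 went from a ratio of 0.785 (0.765 and 0.805 in the orientations) in EV to 1.13 (1.23 and 1.04) in miR-155-sp, a log2 change of 0.53. The RPL17 probe A_32_P158746 went from 1.02 (1.03 and 1.01) to 0.854 (0.861 and 0.846), a log2 change of -0.26. The RPL7A probe A_32_P134788 went from 1.04 (1.04 and 1.05) to 0.970 (0.976 and 0.963), a log2 change of -0.10. For RPL14 the change was -0.11 in the Cy3 labellings alone and 1.16 in the Cy5 labellings alone, and for RPL7A it was -0.26 and 0.05, so that the sign of both turned with the labelling. For RPL17 it was -0.30 and -0.21.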

How the results depend on the processing

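No paired analysis was possible because both labellings of a group come from 1 RNA sample and no result rests on a test. The medians of log2 IP/T were below 0 in both populations under each alternative run. With a common median, medians of log2 IP/T were -0.31 in EV and -0.26 in miR-155-sp, 63 probes lay below 1 in both orientations of miR-155-sp, the large minus small subunit difference in miR-155-sp was -0.11, and the median changes were 0.0355 for IP/T, 0.159 for T and 0.200 for IP. With normexp and loess the medians were -0.28 and -0.20, 73 probes in EV and 72 in miR-155-sp lay below 1 in both orientations, the subunit difference was -0.12, and the changes were 0.0310 for IP/T, -0.0327 for T and 0.0279 for IP. With normexp and quantile normalization the EV median was -0.40, the subunit difference in miR-155-sp 0.02035, and the changes -0.0384 for IP/T and 0.0202 for IP. Per gene (83 means), the EV median was -0.33, 8 genes in EV and 5 in miR-155-sp were at 2 or more, 7 and 5 at 0.5 or less, 52 and 56 below 1 in both orientations, and the subunit difference in miR-155-sp was 0.04342. The lower counts there follow from counting genes in place of probes. The causes of the other shifts were not tested. With one labelling alone (Cy3 or Cy5), the EV median was -0.39 to -0.37, the miR-155-sp median -0.41 to -0.39, the subunit difference -0.16 to -0.10 in EV and -0.01 to -0.004 in miR-155-sp, the counts at 0.5 or less 19 to 27 in EV and 18 to 27 in miR-155-sp, those at 2 or more 11 to 13 in EV and 11 in miR-155-sp, and the changes -0.05343 to -0.03089 for IP/T, 0.0268 to 0.0489 for T and -0.0030 to 0.0141 for IP. The change of IP/T of RPL38 was 0.04895 with normexp and loess and 0.0576 with Cy3 alone, and that of RPL14 A_32_P81149 was -0.11 with Cy3 alone. Of the 13 EV probes at 2 or more, 12 stayed there with a common median, 10 with normexp and loess and 9 with normexp and quantile normalization, and of the 21 at 0.5 or less 18, 14 and 17. All member signals were well above background, in a table already filtered for detected probes. Low signal therefore does not limit the values of these members, while the number of RNA samples does. Binding of related transcripts to a probe was not tested.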
